A study of Mus musculus with 9 samples.

Results

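The genes that set up V2b and V2c interneurons (INs) were followed in e11.5 spinal cords of mouse embryos lacking Onecut (OC) transcription factors. They were 6 of the 22180 genes measured, chosen by name: *Foxn4* in V2 precursors, *Gata2*, *Gata3*, *Tal1* and *Tal2* in the V2b lineage, and *Sox1*, which marks V2c cells. Features of the array were assigned to a gene only where the platform annotation gave 1 symbol, which gave 7 features, 2 of them for *Gata3*. Total RNA of 4 *Hnf6-/-;Oc2-/-* (OC mutant) and 5 control spinal cords was hybridised to Affymetrix MoGene 2.0 ST arrays. The OC mutants lack both copies of *Hnf6* (*Onecut1*) and *Oc2* (*Onecut2*), with no Cre or other restriction to a cell type named, and the study's methods describe *Oc3* (*Onecut3*) as lost from their spinal cords as well. The labels call the other embryos control and name no allele. Each array was taken as 1 embryo, because the series description counts embryos. It counts 1 more mutant, which is not analysed here.

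V2 INs arise in the ventral spinal cord from the p2 progenitor domain. Cells leaving this domain turn on *Foxn4*, which starts the Notch ligand *Dll4*. Neighbouring cells then take different fates: those with little Notch signalling become excitatory V2a INs, and those with strong Notch signalling become inhibitory V2b INs that express *Gata2*, *Gata3* and *Tal1*. V2c cells derive from the V2b lineage and are marked by *Sox1*, which ventricular progenitors along the whole neural tube also carry. The Tal1 protein (SCL) works with Gata2 and LIM-domain bridging proteins in a complex that promotes V2b over V2a identity.

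None of the 6 genes passed the test for a difference between OC mutant and control spinal cords. *Foxn4* came nearest, with a level 0.859-fold that of controls, and *Tal1* stood on the other side, at 1.12-fold. For both, the difference was larger than the SD of either group. *Gata2*, *Gata3*, *Tal2* and *Sox1* had fold changes between 0.959 and 1.03. All 4 mutant arrays lay below the control median for *Foxn4* and *Tal2* and above it for *Tal1*, and 2 lay on each side for the other 3 genes. The share of all genes with every mutant on 1 side was not computed, so this count cannot tell a shift from its absence. *Tal2* had every mutant below the control median at 0.986-fold. In limma 0 of the 6 passed an adjusted p of 0.05 over all genes (0.0225% of all genes did), and 0 of the 6 had an unadjusted p under 0.05 (9.74% of all genes did, 4.81% as higher and 4.93% as lower in OC mutants). The arrays of the groups overlapped for all 6, and did not for 3.94% of all genes, 2.15% with every OC mutant above every control and 1.79% with every OC mutant below. The median log2 fold change of the 6 was −0.014, and that of all genes was 0.0045.

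RNA of a whole spinal cord was measured, so fewer cells of a type and less RNA per cell cannot be told apart. The values are log2 signals of the array, and fold changes compare embryos within a feature. Signals of different features depend on their probes too and give no order of RNA levels between genes. Array medians ran from 5.24 to 5.31 in OC mutants and from 5.23 to 5.26 in controls. Any pair of arrays correlated at a Pearson's r of 0.974 to 0.982 among OC mutants, 0.981 to 0.988 among controls and 0.973 to 0.984 across the groups. Pan-neuronal markers had the lowest mean in mutant 3 (9.75) and in control 1 (9.77), where the other arrays had 9.98 to 10.38 in OC mutants and 10.12 to 10.42 in controls. Y-linked genes averaged 8.19 to 8.31 in all 4 OC mutants, and 8.10 to 8.32 in 3 controls against 3.52 and 3.77 in controls 2 and 3, so the sex of the embryos was not balanced between the groups. *Onecut2* read 6.57, 6.67, 7.21 and 7.18 in OC mutants 1 to 4, and 7.68, 8.01, 7.65, 7.89 and 7.52 in controls 1 to 5. *Onecut2* thus separated the groups, while *Onecut1* overlapped (7.21 ± 0.08 in OC mutants, n = 4, and 7.33 ± 0.28 in controls, n = 5, SD). The sources used here do not say whether these features lie in the deleted parts.

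*Foxn4* encodes a forkhead factor of V2 precursors that is needed for V2b fate. It read 5.86, 6.03, 5.84 and 6.04 in OC mutants 1 to 4, and 5.95, 6.22, 6.22, 6.38 and 6.05 in controls 1 to 5. Mutants 1 and 3 lay below every control, and mutants 2 and 4 lay between control 1 and control 5. The mean was 5.94 ± 0.11 (SD, n = 4) in OC mutants and 6.16 ± 0.17 (SD, n = 5) in controls. The log2 fold change was −0.22 (SE 0.10, 95% interval −0.45 to 0.01), with limma adjusted p = 0.532, unadjusted p = 0.0580 and an exact two-sided permutation p = 0.0635, where 0.00794 is the smallest that 4 arrays against 5 allow. The unadjusted limma p was 0.0395 after quantile normalization, 0.0426 after median centring and 0.0229 without control 1, and the difference was −0.18 (unadjusted p = 0.182) with the Y-linked level as a covariate. Quantile normalization, median centring and leaving out control 1 were the only 3 of 20 alternatives under 0.05 before adjustment for *Foxn4*. After adjustment, 0 of the 20 passed. Quantile normalization and median centring also left 56.0% and 54.1% of all genes with a negative log2 fold change, against 48.7% without them.

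**Figure D1:**
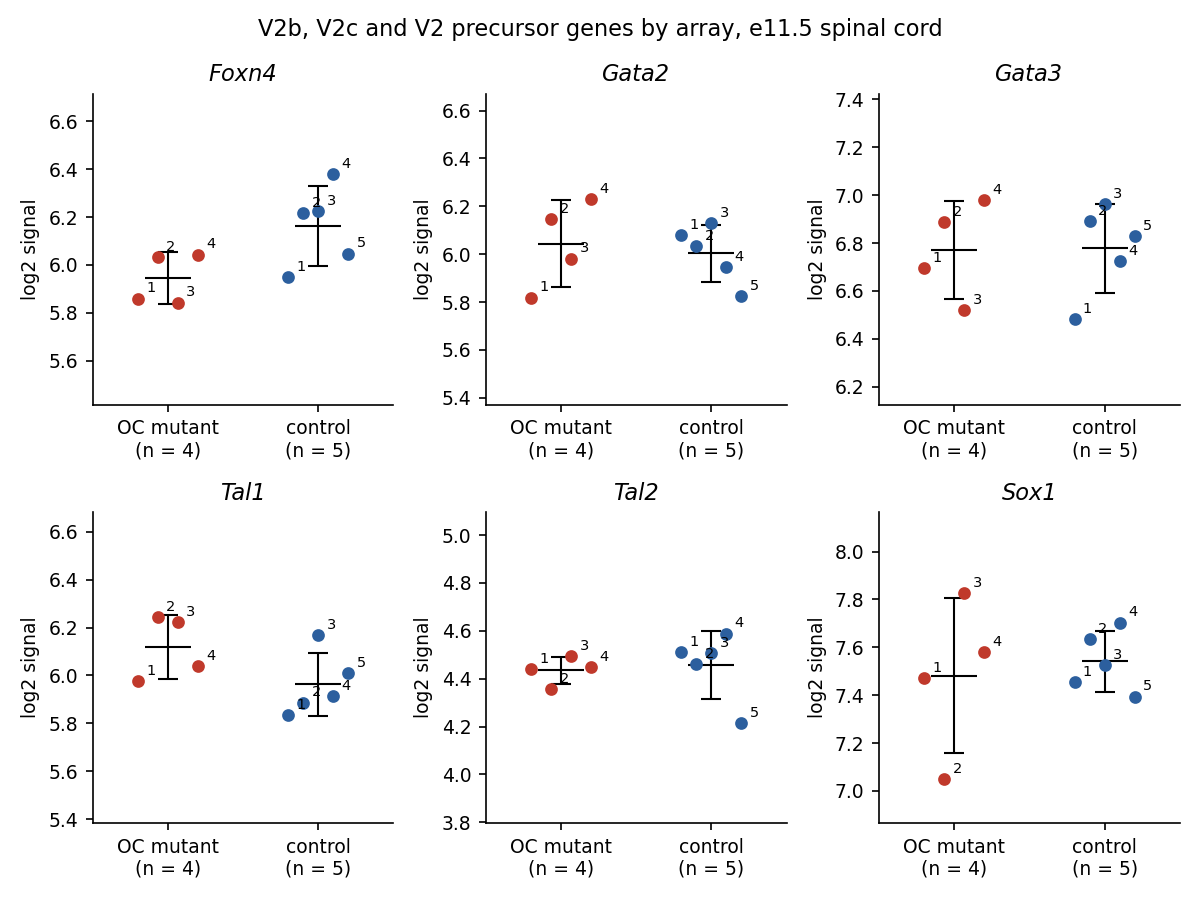
Log2 signal of the 6 genes on each array (vertical axis, a span of the same width in every panel) in OC mutant (left, red, n = 4) and control (right, blue, n = 5) spinal cords at e11.5. Points are single arrays labelled with their replicate number, and black bars give the mean and SD; the groups overlap in every panel. *Foxn4*, *Tal1* and *Tal2* have all mutant points on 1 side of the control median, a pattern whose share over all genes was not computed.

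*Gata2* encodes a zinc finger factor that turns on early in V2b cells and is also active in blood progenitors and endothelium. Its log2 signal was 5.82, 6.15, 5.98 and 6.23 in OC mutants 1 to 4, and 6.08, 6.03, 6.13, 5.95 and 5.83 in controls 1 to 5. Mutants 2 and 4 were the highest of all arrays and mutant 1 the lowest, so that the controls fell inside the mutant range. The log2 fold change was 0.04 (SE 0.11, 95% interval −0.19 to 0.27, limma adjusted p = 0.934, exact permutation p = 0.690). The difference was −0.021 without mutant 4 and −0.0030 without control 5.

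*Gata3*, the zinc finger gene most used to mark V2b INs, read 6.70, 6.89, 6.52 and 6.98 in OC mutants 1 to 4 on its brighter feature (17381533), and 6.48, 6.89, 6.96, 6.73 and 6.83 in controls 1 to 5. The ranges were almost the same, with a low array in each group, mutant 3 and control 1. The log2 fold change was −0.0079 (SE 0.12, 95% interval −0.28 to 0.26, limma adjusted p = 0.993, exact permutation p = 0.952), with either sign when single arrays were left out, from −0.082 without control 1 to 0.076 without mutant 3. The other *Gata3* feature (17366644) read 5.55 ± 0.05 (SD, n = 4) in OC mutants and 5.57 ± 0.06 (SD, n = 5) in controls, a difference of −0.016 (SE 0.08, adjusted p = 0.974 in limma with every feature tested). A further feature is shared in the annotation by *Gata3* and the long noncoding RNAs 9230102O04Rik and 4930412O13Rik, which overlap the gene, so it was not tested as *Gata3*. It read 4.48, 4.70, 3.86 and 4.68 in OC mutants 1 to 4, and 4.53, 4.51, 4.63, 4.46 and 5.05 in controls 1 to 5 (exact permutation p = 0.492).

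*Tal1* (SCL) encodes a basic helix-loop-helix factor of the V2b lineage that is also a master regulator of blood and endothelial precursors. It read 5.97, 6.24, 6.22 and 6.04 in OC mutants 1 to 4, and 5.83, 5.89, 6.17, 5.91 and 6.01 in controls 1 to 5. Mutants 2 and 3 lay above every control, and control 3 above mutants 1 and 4. The mean was 6.12 ± 0.13 (SD, n = 4) in OC mutants and 5.96 ± 0.13 (SD, n = 5) in controls, a difference of 0.16 (SE 0.10, 95% interval −0.06 to 0.38, limma adjusted p = 0.636, exact permutation p = 0.119). Without control 1 and mutant 3 together it was 0.091.

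The DNA before the starts of these genes was searched for letters that OC factors and V2b regulators bind. RefSeq (GRCm38.p6) gave 8 promoter windows for the 6 genes, each from 250 bases before to 50 after a start, with 2 windows for *Gata2* and 2 for *Tal1*. On both strands, the Onecut core (ATTGAT or ATTGAC) was in 1 of the 8 windows, against 13.1% of all 32851 windows. The match stood at position −238 from the upstream start of *Tal1*. That window is shown up to the start, at chr4:115056176-115056425 on the plus strand, with the Onecut core in capitals.

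Tal1: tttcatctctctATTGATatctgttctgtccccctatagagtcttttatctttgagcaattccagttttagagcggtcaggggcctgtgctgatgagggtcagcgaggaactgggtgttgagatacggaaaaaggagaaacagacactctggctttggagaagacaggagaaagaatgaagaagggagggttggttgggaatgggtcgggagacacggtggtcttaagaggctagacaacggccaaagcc

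The same *Tal1* window held the 1 GATA site (AGATAA or TGATAA) found in the 8 windows, against 18.6% of all windows. An E-box (CANNTG), the letters bound by Tal1 and its partners, was in 4 of the 8 windows, 1 each of *Gata2*, *Gata3*, *Tal1* and *Tal2*, against 72.3% of all windows. These matches describe letters only, and no binding was measured.

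*Tal2*, a relative of *Tal1* best known from GABAergic neurons of the midbrain, read 4.44, 4.36, 4.49 and 4.45 in OC mutants 1 to 4, and 4.51, 4.46, 4.51, 4.59 and 4.22 in controls 1 to 5. The mutant arrays all lay inside the control range, which control 5 set at its low end. The log2 fold change was −0.021 (SE 0.09, 95% interval −0.22 to 0.18, limma adjusted p = 0.967, exact permutation p = 0.778), −0.081 without control 5, 0.012 without control 4 and 0.0050 without mutant 2. Its signal was dim, below the median of all features on every array.

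*Sox1*, a SoxB1 factor of neural progenitors and of V2c cells, read 7.47, 7.05, 7.83 and 7.58 in OC mutants 1 to 4, and 7.45, 7.63, 7.52, 7.70 and 7.39 in controls 1 to 5. The lowest and the highest of the 9 arrays were both OC mutants. The SD was 0.32 in OC mutants (n = 4) and 0.13 in controls (n = 5). The log2 fold change was −0.060 (SE 0.14, 95% interval −0.37 to 0.25, limma adjusted p = 0.927, exact permutation p = 0.754), 0.084 without mutant 2 and −0.17 without mutant 3. Because progenitors also carry *Sox1*, the V2c share of this signal was not measured.

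The octamer bound by Pou2f2 (ATGCAAAT) was in 1 of the 8 windows, that of *Sox1*, 19 bases after the start, against 1.74% of all windows. This search was added after the windows had been seen, so the share is no test of the match. The match is shown with its flanks at chr8:12395526-12395555 on the plus strand, with the octamer in capitals.

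Sox1: gccagcgcgccATGCAAATcaccgccgccg

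The intervals give, gene by gene, the size of difference in array signal that these arrays leave possible. How closely array signal follows RNA was not measured, so the intervals set no limit on the change in RNA. For all 6 genes, the 95% interval lay between log2 fold changes of −0.45 and 0.38, or between 0.734-fold and 1.30-fold. Those of *Onecut2* (−0.84, 95% interval −1.19 to −0.50) and *Onecut3* (−0.81, 95% interval −1.06 to −0.55) lay wholly below these. That of *Onecut1* (−0.11, 95% interval −0.41 to 0.18) lay within the span of the 6 genes.

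**Figure D2:**
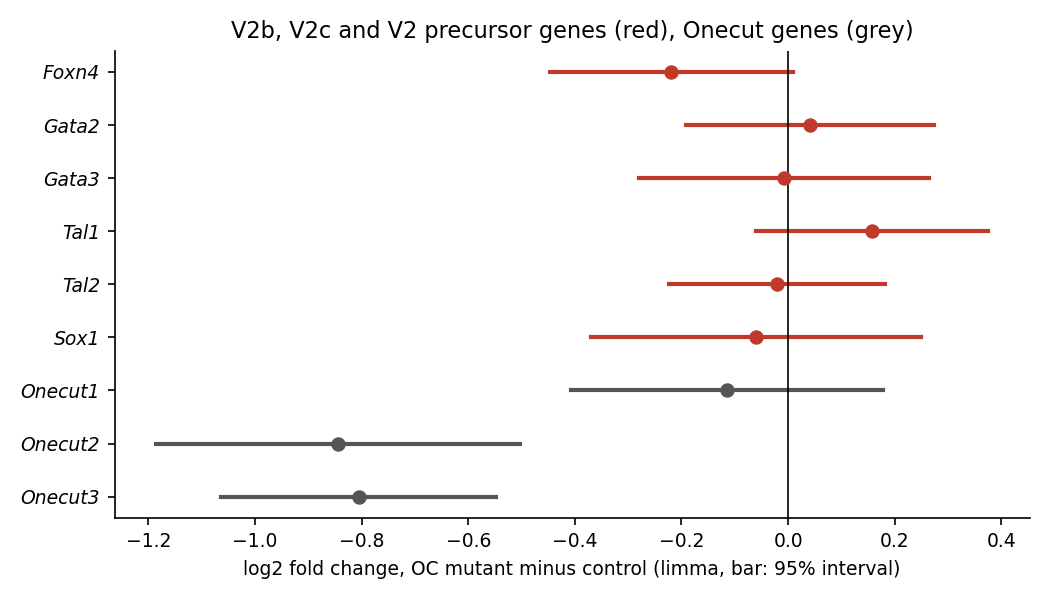
Log2 fold change, OC mutant minus control (horizontal axis), of the 6 genes (red) and of the 3 Onecut genes (grey), with the 95% interval of limma as a bar. The 6 red intervals all reach across 0 and end between −0.45 and 0.38, as does that of *Onecut1*, while those of *Onecut2* and *Onecut3* end at −0.50 and −0.55.

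Whether the 6 genes deviated together among embryos of a group was examined next. Deviations of each array from its group mean were correlated for the 15 pairs of genes over the 9 arrays, with exact permutation within groups. Pearson's r ran from −0.31 (*Gata3* and *Sox1*) to 0.64 (*Foxn4* and *Gata3*), and 10 of the 15 pairs were positive. *Tal2* and *Sox1* were the 1 pair at an unadjusted p under 0.05 (r = 0.577, p = 0.00972 by exact permutation). Spearman's rho for it was 0.683 (exact permutation p = 0.0524). Without controls 4 and 5, the 2 arrays farthest from the median in *Tal2*, r was 0.751. Mutants 2 and 3, the lowest and highest arrays for *Sox1*, were kept there. After Benjamini-Hochberg adjustment over the 15 pairs, *Tal2* and *Sox1* did not pass (adjusted p = 0.146 for r and 0.529 for rho).

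*Sox1* tended to deviate in the same direction as markers of neural progenitors, short of the threshold after adjustment. Its deviations were set against those of the mean of 9 progenitor genes that do not include *Sox1* (r = 0.711, exact permutation p = 0.0163, adjusted p = 0.471 over 36 relations; rho = 0.867, exact permutation p = 0.00208, adjusted p = 0.0750). Without controls 4 and 5, the 2 arrays farthest from the median in the progenitor mean, r was 0.705. Mutants 2 and 3, which deviated most in *Sox1*, were kept there. Mutant 2, the array with the least *Sox1*, also had the lowest mean of these genes among OC mutants, at 9.24, where the other mutant arrays had 9.34 to 9.42. By r, *Sox1* followed the mean of 9 erythroid markers as closely (r = 0.747, exact permutation p = 0.0549, adjusted p = 0.489; rho = 0.650, exact permutation p = 0.113). Its r was 0.611 with the sympathetic and neural crest mean and −0.607 with the pan-neuronal mean, so the relation was not particular to progenitors. *Gata3* was set against the mean of 12 pan-neuronal markers in the same way (r = 0.755, exact permutation p = 0.0392, adjusted p = 0.471; rho = 0.500, exact permutation p = 0.214, adjusted p = 0.538). That relation rested on mutant 3 and control 1, without which r was 0.119. *Tal2* and the progenitor mean had a similar r (r = 0.727, exact permutation p = 0.0323, adjusted p = 0.471; rho = 0.550, exact permutation p = 0.188, adjusted p = 0.538), with r = 0.295 without controls 4 and 5. Of the 36 relations between the 6 genes and 6 marker lists, 3 were at an unadjusted p under 0.05 by r, and none passed after adjustment. They were *Sox1* and *Tal2* with the progenitor mean and *Gata3* with the pan-neuronal mean. By rho, *Tal2* with the pan-neuronal mean (rho = −0.733, exact permutation p = 0.0406, adjusted p = 0.538; r = −0.578, exact permutation p = 0.136) and *Tal1* with the endothelial mean (rho = −0.700, exact permutation p = 0.0465, adjusted p = 0.538; r = −0.374, exact permutation p = 0.367) were also under 0.05 before adjustment.

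**Figure D3:**
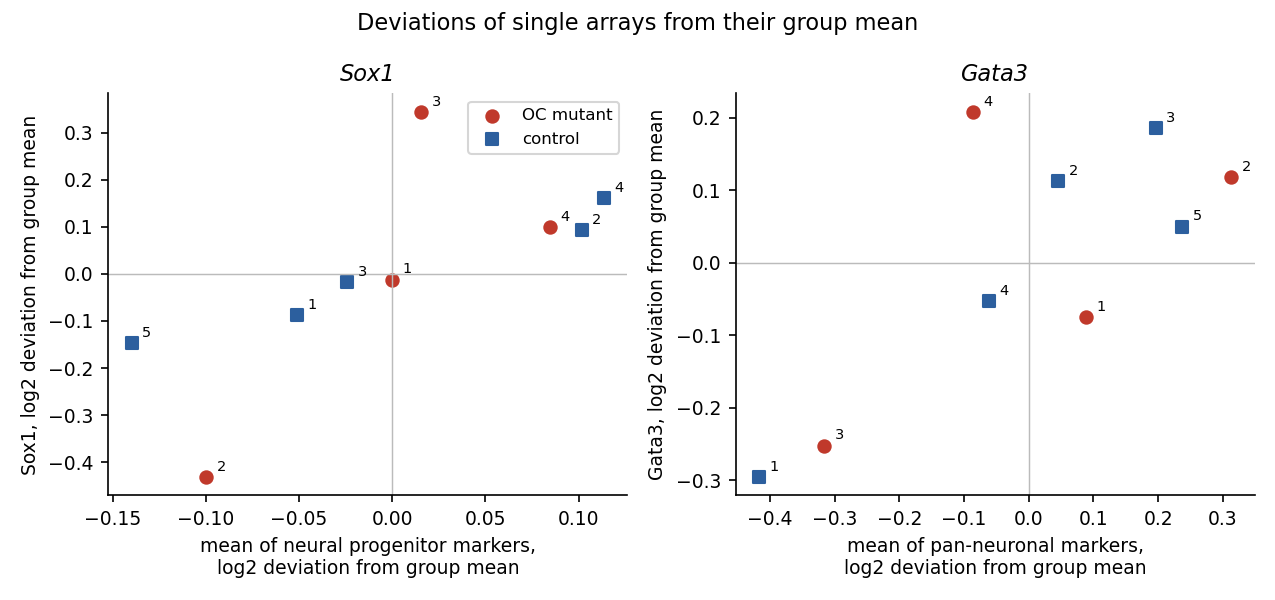
Deviation of *Sox1* (left) and *Gata3* (right) on each array from its group mean (vertical axes, log2) against the deviation of the mean of neural progenitor markers or of pan-neuronal markers (horizontal axes, log2). Red circles are OC mutants and blue squares controls, numbered by replicate; mutant 2 is lowest for *Sox1*, and mutant 3 and control 1 lie apart at the lower left for *Gata3*.

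Among 18283 protein-coding genes, those whose deviations were most like each of the 6 over the 9 arrays reached a Pearson's r between 0.943 and 0.990. They were *Tnfrsf26*, *Olfr16* and *Tmem235* for *Foxn4*, *P2rx4*, *Mpi* and *Neurl1a* for *Gata2*, *Chpf*, *Grina* and *Tbc1d19* for *Gata3*, *Anapc15*, *Orc3* and *Zfp951* for *Tal1*, *H1f1*, *Tsen54* and *Npff* for *Tal2*, and *Rnf144b*, *Spink6* and the cyclin gene *Ccna2* for *Sox1*. The likeness is a description of these arrays, and 0 of the 6 genes stood among the 3 most like another. These r values are the highest of 18283 genes over only 9 arrays. How high such a search reaches by chance was not computed.

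Genes that act upstream of the V2b choice did not pass the test either. Of 13 genes of the V2a and V2b split, which act in Notch and TGF-beta signalling, 11 were tested, 7 above and 4 below 0 (median log2 fold change 0.05), and 0 passed the adjusted p. *Mib1*, an E3 ligase that acts on Notch ligands in the cells that send the signal, read 9.54 ± 0.12 (SD, n = 4) in OC mutants and 9.29 ± 0.08 (SD, n = 5) in controls, with every mutant above every control (log2 fold change 0.25, SE 0.09, limma adjusted p = 0.407, unadjusted p = 0.0154, exact permutation p = 0.0159). It was the only 1 of the 11 with an unadjusted p under 0.05. The Notch target *Hes5* had −0.27 (SE 0.15, limma adjusted p = 0.575), the TGF-beta receptor gene *Tgfbr1* 0.13 (SE 0.09), and the *Foxn4* target *Dll4* −0.096 (SE 0.13). Of the 8 patterning genes of the p2 domain and its neighbours, 4 lay above and 4 below 0 (median log2 fold change −0.018), and 0 passed. The homeobox gene *Nkx6-2* read 6.29 ± 0.30 (SD, n = 4) in OC mutants and 6.78 ± 0.16 (SD, n = 5) in controls (log2 fold change −0.49, SE 0.14, limma adjusted p = 0.343, unadjusted p = 0.00428), *Nkx6-1* had −0.20 (SE 0.12) and *Pax6* 0.20 (SE 0.12).

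Markers of the sister fates and of V2b subsets were read next. Of 7 V2a and V2d markers, 6 were tested, 2 above and 4 below 0 (median log2 fold change −0.089), and 0 had an unadjusted p under 0.05. Those of smallest p were *Lhx4* (0.14, SE 0.10), *Sox21* (−0.14, SE 0.13) and *Vsx1* (−0.15, SE 0.16). Of 11 genes of V2b subsets and of the inhibitory transmitters, 8 were tested, 3 above and 5 below 0 (median log2 fold change −0.0066), and 0 had an unadjusted p under 0.05. The vesicular inhibitory transporter gene *Slc32a1* had −0.37 (SE 0.22, limma adjusted p = 0.616), *Mafa*, which marks a subset of V2b INs, −0.13 (SE 0.12), *Prdm8* 0.25 (SE 0.29) and *Gad1*, which makes GABA, −0.011 (SE 0.26). This list varied widely between embryos of a group, with array means from 7.20 to 8.17 in OC mutants and from 7.07 to 8.18 in controls, and mutant 3 and control 1 were lowest, as they were for *Gata3*.

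The partners and relatives of the 6 proteins did not pass either. Of the 15 genes for partners of the SCL complex, 5 lay above and 10 below 0 (median log2 fold change −0.11), with 0 at an unadjusted p under 0.05. *Lmo4*, a LIM-only protein that joins Tal1 and Gata2 in the V2b complex, read 7.78 ± 0.11 (SD, n = 4) in OC mutants and 7.98 ± 0.14 (SD, n = 5) in controls (log2 fold change −0.20, SE 0.10, limma adjusted p = 0.539). The corepressor gene *Cbfa2t2* had 0.18 (SE 0.09), *Ldb2* 0.16 (SE 0.10) and the bridging factor *Ldb1* −0.053 (SE 0.08). Of the 12 family relatives, 4 lay above and 8 below 0 (median log2 fold change −0.064). *Gata6*, a factor of heart and gut, had −0.36 (SE 0.14, limma adjusted p = 0.440, unadjusted p = 0.0215) at a dim signal of 3.80 ± 0.23 (SD, n = 4) in OC mutants and 4.17 ± 0.22 (SD, n = 5) in controls. *Lyl1*, the blood relative of *Tal1*, had −0.16 (SE 0.09) and *Foxn2* 0.095 (SE 0.08).

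*Gata2* and *Tal1* are shared with blood and vessels, and *Gata3* with sympathetic neurons, so markers of those cells were read in the same arrays. Of 14 erythroid markers, 9 were tested, 2 above and 7 below 0 (median log2 fold change −0.073), and the list mean ran from 6.96 to 7.66 in OC mutants and from 7.21 to 7.68 in controls. Those of smallest p were *Tfrc* (0.21, SE 0.11), *Hba-x* (−0.29, SE 0.24) and *Hbb-bh1* (−0.58, SE 0.55), and 0 had an unadjusted p under 0.05. Single arrays moved both globin genes. *Hba-x* ran from −0.51 without mutant 3 to −0.093 without mutant 1, and *Hbb-bh1* from −1.10 without mutant 3 to −0.080 without mutant 2, and without mutant 3 both had an unadjusted p under 0.05 in limma and neither passed after adjustment. Of 13 endothelial markers, 3 lay above and 10 below 0 (median log2 fold change −0.051), with a list mean from 6.81 to 6.99 in OC mutants and from 6.69 to 7.12 in controls. *Sox18*, a factor of young vessels and the only endothelial marker with an unadjusted p under 0.05, had −0.38 (SE 0.15, limma adjusted p = 0.464), *Kdr* 0.20 (SE 0.11) and *Cldn5* −0.17 (SE 0.12). Of 10 macrophage and haematopoietic markers, 4 lay above and 6 below 0 (median log2 fold change −0.051), with a list mean from 5.60 to 5.81 in OC mutants and from 5.58 to 5.84 in controls. *Spi1*, a factor of myeloid cells and the only such marker with an unadjusted p under 0.05, had every mutant array below every control array (−0.23, SE 0.09, limma adjusted p = 0.438), *Csf1r* had −0.21 (SE 0.12) and *Ptprc* −0.19 (SE 0.14). Of 8 sympathetic and neural crest markers, 5 were tested, 2 above and 3 below 0 (median log2 fold change −0.041), with a list mean from 5.39 to 5.84 in OC mutants and from 5.56 to 5.96 in controls. *Foxd3*, a neural crest factor and the only such marker with an unadjusted p under 0.05, had −0.32 (SE 0.11, limma adjusted p = 0.390), *Sox10* −0.34 (SE 0.31) and *Dbh* −0.041 (SE 0.11). The part of these cells in the levels of *Gata2*, *Gata3* and *Tal1* was not tested.

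Neural progenitor and neuronal markers, the main tissue of these samples, read well above the array medians in both groups. The means of the other cell type lists were above those medians too, so this does not set neural tissue apart. The 9 progenitor markers averaged 9.34 ± 0.08 (SD, n = 4) in OC mutants and 9.38 ± 0.11 (SD, n = 5) in controls, 4 above and 5 below 0 (median log2 fold change −0.026). *Hes5*, *Pax6*, *Sox2* and *Sox3* of this list also stand in lists above. The intermediate filament gene *Nes*, the only 1 of the 9 with an unadjusted p under 0.05, had −0.26 (SE 0.10, limma adjusted p = 0.471, unadjusted p = 0.0300). *Vim* had every OC mutant below every control (−0.15, SE 0.08, limma adjusted p = 0.574). The 12 pan-neuronal markers averaged 10.07 ± 0.27 (SD, n = 4) in OC mutants and 10.18 ± 0.26 (SD, n = 5) in controls, 2 above and 10 below 0 (median log2 fold change −0.10). That median was −0.0058 without mutant 3 and −0.21 without control 1. *Nefl* (−0.37, SE 0.12, limma adjusted p = 0.369), *Tubb3* (−0.26, SE 0.12, limma adjusted p = 0.512) and *Stmn2* (−0.22, SE 0.12, limma adjusted p = 0.580) were those of smallest p. Of the 12, 2 had an unadjusted limma p under 0.05, *Nefl* (0.00993) and *Tubb3* (0.0499). Both were lower in OC mutants, as were 4.93% of all genes at that threshold. Over all genes, 48.7% had a negative log2 fold change.

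**Figure D4:**
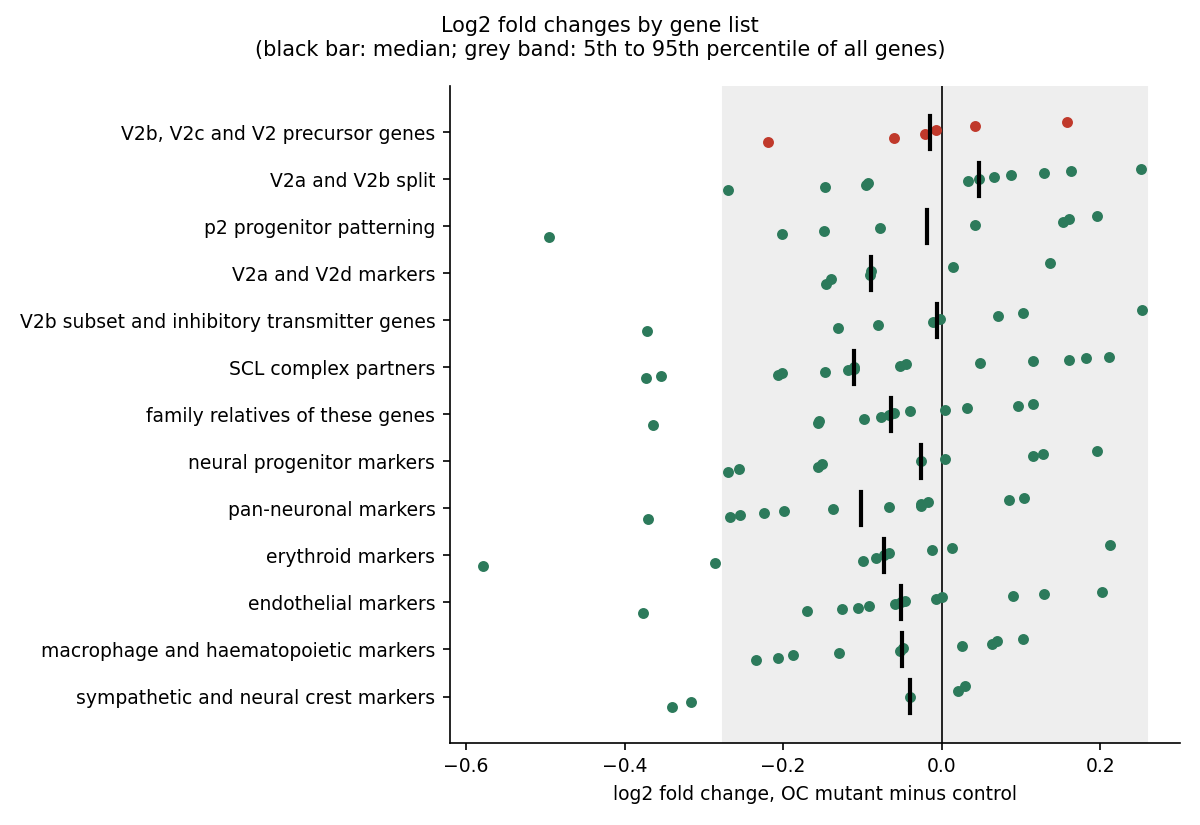
Log2 fold change, OC mutant minus control (horizontal axis), of each tested gene by list, with the median of a list as a black bar and the 5th to 95th percentile of all genes (−0.28 to 0.26) as a grey band. The 6 V2b, V2c and V2 precursor genes, in red at the top, all lie within the band, from −0.22 (*Foxn4*) to 0.16 (*Tal1*).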

How the data were processed

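The authors made biotin-labelled cDNA (GeneChip WT PLUS kit), read the arrays on Affymetrix equipment with Expression Console software, and deposited log2 values of 41345 features for 9 arrays. Background correction, summarisation and normalization are not given in the sources used here. Groups and replicate numbers came from the sample titles. Of the features, 23521 had 1 symbol in the platform annotation, 1820 had several and 16004 were not listed. Symbols were updated through RefSeq (GRCm38.p6), and the feature with the highest mean was kept per symbol, which gave 22180 genes with no filter on dim ones.

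Genes were tested with limma 3.58.1 (lmFit, eBayes; R 4.3.3) for OC mutant minus control over all 9 arrays with no covariate (prior degrees of freedom 4.47), with Benjamini-Hochberg adjustment over all genes at 0.05. Single genes also had an exact two-sided permutation test over the 126 assignments. Simulated data with known changes were used to test this step. Correlations used all 2880 permutations within groups. The number of arrays limits the precision. The limma p-values set the group difference against the spread between these arrays, moderated over all genes. Permutation p-values of single genes give the share of assignments with a difference at least as large. The 6 genes and the 14 other lists were chosen with earlier results of these data known. Named were the 6 genes, the genes of each list at an unadjusted p under 0.05 or, where fewer than 3, up to 3 of smallest p, and for each of the 6 the 3 genes most like it. *Dll4*, *Gad1* and *Ldb1* were chosen after their values were seen. Alternatives were quantile normalization, median centring, a filter on dim genes, other features of a gene, array weights, no moderation, a trended robust fit, a replicate block, the Y-linked level as a covariate and arrays left out.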

Additional observations from a re-analysis of the deposited data

Results flagged for a closer look

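In 44 groups of 4 or 5 arrays, 3 held an array far from the others, where chance flags about 1 in 20. The feature shared by *Gata3* and 2 overlapping long noncoding RNAs read 5.05 in control 5, where the other controls had 4.46 to 4.63. The mean of genes of the V2a and V2b split was 7.93 in mutant 2, the array with the least *Sox1*, where the other mutants had 8.08 to 8.10. The mean of macrophage and haematopoietic markers was 5.58 in control 4, where the other controls had 5.78 to 5.84.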

How the results depend on the processing

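None of the 6 genes passed the adjusted p in any of 120 values from the alternatives (adjusted p from 0.465 to 0.999). *Foxn4* stayed lower and *Tal1* higher in all 20 alternatives each. For these 2 genes, settings that change only the variance, the genes tested or the features of a gene returned the main difference, so they could not change its sign. For all 6 genes, the replicate block gave the same difference as leaving out control 5. The alternatives are thus not independent checks. The other 4 genes lay near 0 and changed sign in 15 values, the cause of which was not tested. With the replicate number as a block, *Gata2* had −0.0030 and *Gata3* 0.0046. With the Y-linked level as a covariate, *Gata3* had 0.094 and *Tal2* 0.0013. With control 1 and mutant 3 both left out, a choice made after seeing the data, *Gata3* had 0.0022. With single arrays left out, *Gata2* ran from −0.021 to 0.12, *Gata3* from −0.082 to 0.076, *Tal2* from −0.081 to 0.012, *Sox1* from −0.17 to 0.084, *Dbh* from −0.097 to 0.026, *Prdm8* from −0.045 to 0.37 and *Vsx1* from −0.28 to 0.038. *Sox21* had 0.16 on its other feature and 0.013 as the mean of its features. Of 700 values of 35 other named genes, 693 kept their sign and side of the threshold.

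Over all genes, 5 passed the adjusted p. The count was 12 with array weights, 1 with the replicate block, 2 with the Y-linked covariate, 44 without both control 1 and mutant 3, and 2 to 44 without single arrays (44 without mutant 3). At an unadjusted p under 0.05 there were 2161 genes, 1067 higher and 1094 lower, against 1150 with the block and 1378 with the covariate. Quantile normalization gave 767 higher and 1428 lower, and median centring 758 and 1302. Same-numbered arrays of the groups did not deviate together (r from −0.39 to −0.13 over all genes). The labels do not say whether they share more than a number. These correlations cannot settle it, because deviations from the mean of so few arrays depend on one another. With single arrays left out, list medians ran from −0.16 (without mutant 4) to 0.020 (without mutant 1) for progenitor markers, from −0.21 to −0.0058 for pan-neuronal markers and from −0.15 (without control 1) to 0.19 (without mutant 3) for V2b subset and inhibitory genes. For the 6 genes the median ran from −0.052 to 0.015.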
